A study of Homo sapiens with 7 samples.

Results

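Non-muscle mesenchymal cells were taken from 2 single-cell libraries of day 15 cardiac cultures, 1 grown with CHIR and 1 with the vehicle DMSO. CHIR stands for CHIR99021, which inhibits the kinase GSK3. The cells were chosen by their transcripts. For each cell the UMIs (unique molecular identifiers, 1 per captured transcript) of the muscle genes TNNT2, ACTN2, MYH6 and TNNI1 were divided by all its UMIs. A cell was kept when this share was under 0.1 of the percentile 95 of its own library, which put the limit at 0.158% of UMIs with CHIR and 0.185% with DMSO. At most 2 of 5 epithelial genes (EPCAM, CLDN4, CLDN7, RAB25, WFDC2) and at most 2 of 6 endothelial genes (PECAM1, CDH5, EMCN, PLVAP, ECSCR, TIE1) could be detected. This left 3608 of 5607 CHIR cells (64.3%, exact binomial 95% interval 63.1 to 65.6) and 1209 of 4015 DMSO cells (30.1%, 28.7 to 31.6). Together they were 4817 of the 9622 day 15 cells and of the 15305 cells of the series.

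The cultures were made from the human embryonic stem cell line H1, and both day 15 groups share that line, the day and a sort for live cells. No dose of CHIR and no time of its addition is stated in the labels. A library from day 11, with no treatment named, held 974 such cells of 5683 (17.1%) and is used as a reference level. Its day is taken from its title, while its protocol text names day 15. The series title concerns canonical Wnt signalling and atrioventricular canal heart muscle, and the comparison here asks which genes differed with CHIR in the cells of the same cultures that were not muscle.

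In canonical Wnt signalling a ligand binds Frizzled and LRP receptors, the GSK3-containing complex stops degrading beta-catenin, and beta-catenin with TCF/LEF factors turns on target genes, many of which encode feedback inhibitors. An inhibitor of GSK3 acts below the receptors. In the embryonic heart, Wnt and BMP signals act in the atrioventricular canal, where endocardial cells become mesenchyme and fill the cushions that are later remodelled into valves. The epicardium, the outer layer of the heart, is a further source of cardiac fibroblasts and of vascular smooth muscle.

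Both groups carried the collagen markers of mesenchyme. At least 1 UMI of both COL1A1 and COL3A1 was found in 98.1% of the CHIR and 99.1% of the DMSO cells. COL1A1, the main fibrillar collagen chain, stood at 763 CPM (UMIs per 1000000 UMIs of the summed cells) with CHIR and 697 with DMSO, and COL3A1, a collagen of loose connective tissue, at 1081 and 960. In muscle cells of the same libraries, taken as cells at or above 0.5 of the percentile 95, COL3A1 stood at 178 and 53.7 CPM. At least 1 UMI of COL1A1 was found in 68.9% of CHIR and 58.9% of DMSO muscle cells, and of COL3A1 in 64.6% and 22.3%.

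The 2 groups of cells differed in depth and in muscle RNA. The median cell held 11736.5 UMIs and 3124 genes with CHIR and 17654 UMIs and 3859 genes with DMSO. Transcripts of ribosomal proteins were 34.7% and 28.1% of UMIs, and mitochondrial transcripts 4.34% and 2.78%. Of 20 muscle genes outside the rule, 18 were measured, 0 were at least 2-fold higher with CHIR and 10 at least 2-fold lower. Over all measured genes the shares were 19.9% and 13.5%. The summed level of these muscle genes was 520 CPM in CHIR cells and 2086 in DMSO cells. This was 3.12% and 4.46% of the level in muscle cells of the same library, 16670 and 46731 CPM. In those muscle cells 0 of the 20 were higher with CHIR and 9 lower, beside 9.11% and 14.3% of all genes. MYL7, the light chain of atrial and early heart muscle, was at 119 and 1094 CPM, 5.70% and 4.29% of the muscle cells' level. Most members were likewise at a few percent or less, but not all. DES was at 206% and 232% of that level, TNNI3 at 30.1% and 38.4%, NPPB at 32.9% and 140.6%. PLN was at 2.51% and 25.5%, and ATP2A2 at 21.5% and 9.14%. The threshold lay closer to the bulk of the DMSO cells, since 193 of them (15.96%) lay just inside it, at 0.08 to 0.1 of the percentile, against 120 CHIR cells (3.33%). There MYL7 was at 271 CPM in CHIR cells and 1800 in DMSO cells, and just outside, at 0.1 to 0.12, it was at 572 and 2054. CHIR and DMSO shared 4 cell barcodes, 1 of them in both groups of cells. The part of muscle RNA, depth or ribosomal RNA in the differences below was not tested.

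Each group had 1 library, so differences could not be checked against replicates and no test was made. Ratios of CPM are given with exact 95% intervals, which cover counting error only, and a gene is called higher or lower past 2-fold. Genes were measured where both tables list them and the 2 groups of cells together held 20 UMIs or more. Of these 16371 genes, 3259 (19.9%) were higher with CHIR and 2211 (13.5%) lower. These shares are the background for the counts below, except those in muscle cells or under another setting. Among 1478 genes that reached 100 CPM in either library, 124 were higher and 239 lower. Ribosomal protein genes, mitochondrial genes and the genes used to choose the cells were left out of this count. The median log2 ratio of all genes was 0.16. When the totals excluded mitochondrial and ribosomal protein genes it was 0.34, and 4203 genes were higher and 1798 lower, so that the higher calls were 70.0% of all calls in place of 59.6%.

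Upstream sequence is shown for 3 genes that were higher with CHIR. SP5 is a direct Wnt target, LEF1 encodes one of the factors that bind beta-catenin, and ADAMTS19 had one of the widest differences without being a standard readout. The 250 bases before the RefSeq start site are given 5′ to 3′ on the gene's strand in GRCh38.p14, at chr2:170715087-170715336 (plus strand) for SP5, chr4:108166302-108166551 (minus strand) for LEF1 and chr5:129460048-129460297 (plus strand) for ADAMTS19. Capitals mark CTTTGA or CTTTGT, the core letters of TCF/LEF sites, or their reverse complements TCAAAG and ACAAAG.
SP5: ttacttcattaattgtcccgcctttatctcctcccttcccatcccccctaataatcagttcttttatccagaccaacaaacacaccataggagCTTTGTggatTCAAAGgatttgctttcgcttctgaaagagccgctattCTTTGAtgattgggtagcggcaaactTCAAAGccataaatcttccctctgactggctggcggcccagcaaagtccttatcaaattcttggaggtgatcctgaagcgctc
LEF1: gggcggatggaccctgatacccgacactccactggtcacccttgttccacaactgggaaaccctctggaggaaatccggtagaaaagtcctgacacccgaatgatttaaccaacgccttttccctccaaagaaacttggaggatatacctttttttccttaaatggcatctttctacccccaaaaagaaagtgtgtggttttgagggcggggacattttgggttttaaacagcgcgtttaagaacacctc
ADAMTS19: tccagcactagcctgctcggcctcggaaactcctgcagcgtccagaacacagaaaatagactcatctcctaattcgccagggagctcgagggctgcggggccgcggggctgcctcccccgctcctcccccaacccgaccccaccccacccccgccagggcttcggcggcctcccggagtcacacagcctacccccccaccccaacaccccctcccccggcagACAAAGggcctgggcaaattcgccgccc

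The SP5 window held 4 matches, beginning at -157, -147, -109 and -83 from the start site. LEF1 had 0 and ADAMTS19 had 1, at -28. Windows of PITX1, POSTN, MSX1 and MSX2, also higher with CHIR and outside the Wnt target list, were searched too and had 0 each. At least 1 match was present in 22.8% of 35116 human windows of this length, and 4 or more in 20 windows (0.0570%). Of 16 genes listed as Wnt targets, 9 had a window, and 6 of their 13 windows (46.2%) held a match. NKD1, AXIN2, NOTUM and ZNRF3 were among those without a window. The windows with a match were those of SP5, RNF43 (2 windows), TCF7, CDX2 and TBXT. No ratio was taken for CDX2 and TBXT. A match describes these letters in this window and does not show binding.

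**Figure D1:**
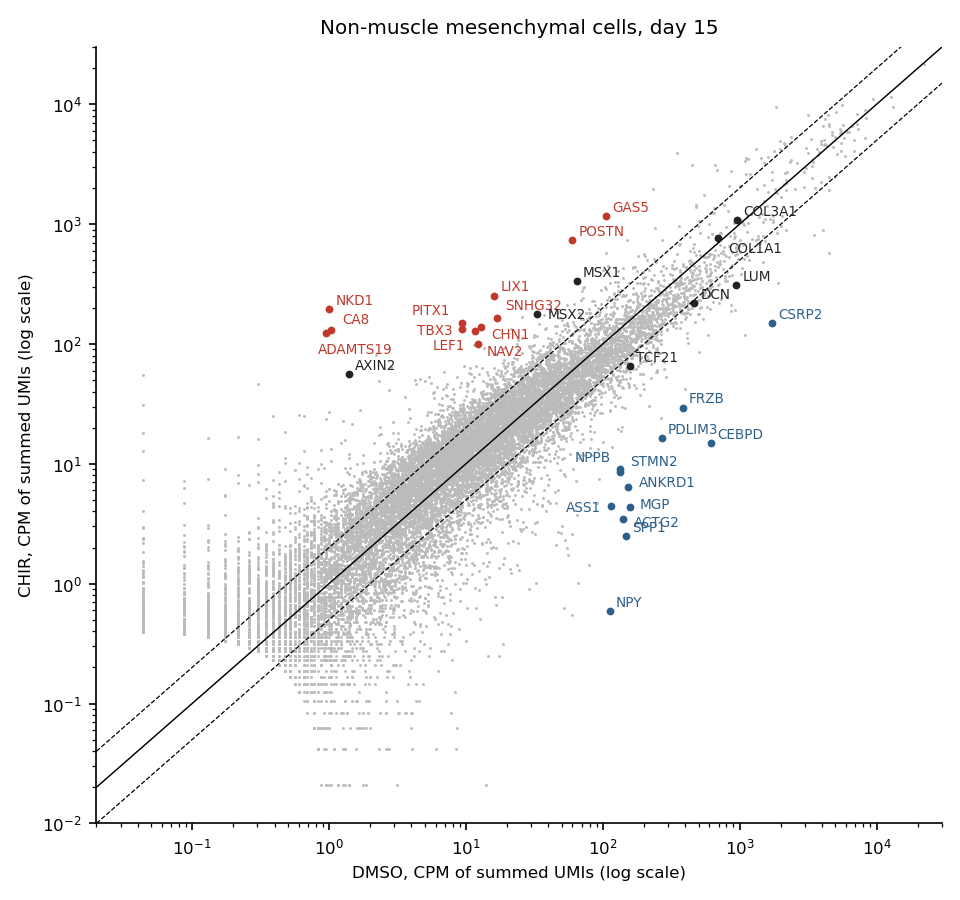
Level of each gene in the summed non-muscle mesenchymal cells with DMSO (horizontal) and with CHIR (vertical), in CPM on log axes, for genes with at least 1 UMI in each. The solid line marks equal levels and the dashed lines 2-fold; red and blue points are the 12 genes ranked highest and the 12 ranked lowest by ratio, black points are genes named whatever their values, and COL1A1 and COL3A1 sit near the line of equal levels.

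Wnt target genes were higher with CHIR and had the highest median of the 41 lists examined. Of 16 members 11 were measured, and 10 of these were higher and 0 lower, beside 19.9% and 13.5% of all genes, with a median log2 ratio of 3.48. NKD1, a feedback antagonist that binds Dishevelled, was at 197 CPM in CHIR cells and 0.999 in DMSO cells, a ratio of 197 (131 to 311). AXIN2, a scaffold of the beta-catenin destruction complex and a classic readout, was at 56.0 and 1.39 CPM, 40.3-fold higher (28.5 to 59.0). LEF1 was at 128 and 11.6 CPM, 11.1-fold higher (9.80 to 12.6). SP5, the repressor whose upstream bases are shown above, was at 30.8 CPM from 1472 UMIs with CHIR, against 1 UMI with DMSO, a ratio of 709 whose interval ran from 127 to 28042. TNFRSF19, a receptor of the tumour necrosis factor family, was 6.16-fold higher (5.25 to 7.26). The lowest ratio was that of the cell cycle gene CCND1, at 56.1 and 35.8 CPM, 1.57-fold (1.45 to 1.70).

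Feedback inhibitors made up much of the remainder, named here to account for the list after their values were seen. The secreted Wnt deacylase NOTUM was at 23.8 and 0.956 CPM. The ubiquitin ligases RNF43 and ZNRF3, which remove Frizzled from the cell surface, were 18.2-fold (12.6 to 27.3) and 5.18-fold higher (4.00 to 6.82). APCDD1, a membrane antagonist, was at 9.92 and 0.869 CPM, and the factor TCF7 at 12.8 and 3.74. LGR5 and CDX2 did not reach the minimum of UMIs. WIF1, a secreted Wnt inhibitor, had 97 UMIs (2.03 CPM) in the CHIR cells, but only the CHIR table lists it and DKK4, and neither day 15 table lists TBXT, so no ratio was taken for these. At day 11, NKD1, AXIN2 and LEF1 stood at 3.50, 6.26 and 41.2 CPM by the same choice of cells, between the DMSO and the CHIR level in each case.

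The Wnt transcripts were spread over many of the CHIR cells. After each cell was thinned to 5000 UMIs, which left 3602 CHIR and 1208 DMSO cells, NKD1 was detected in 55.8% of CHIR cells (54.1 to 57.4) and 0.414% of DMSO cells (0.135 to 0.963). Without thinning the shares were 79.2% and 1.65%. LEF1 was found in 44.9% and 5.46% of the thinned cells and AXIN2 in 24.7% and 0.828%. NKD1 and LEF1 were found together in 26.3% of CHIR and 0.0828% of DMSO cells. SP5 was detected in 14.1% of CHIR cells and in 0 of 1208 DMSO cells, which allows up to 0.248% of cells with a UMI at this depth and sets no limit on cells that express it below capture. Without thinning 28.9% and 0.0827% of the cells had a UMI of SP5. With CHIR, 8.66% of thinned muscle cells had a UMI of NKD1 and 1.61% one of SP5. Whether these came from free RNA or from the muscle cells themselves was not tested. For AXIN2 the share was 28.9% in CHIR muscle cells and 1.69% in DMSO muscle cells, so this gene stood apart between the libraries in both kinds of cell.

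Secreted modulators of Wnt went both ways, with 3 of 15 measured genes higher and 6 lower and a median log2 ratio of -0.12. This median changed sign when the totals excluded mitochondrial and ribosomal genes, at 200 UMIs or more, and in cells with LUM or DCN. DKK2, a secreted ligand of LRP receptors, was at 46.7 CPM in CHIR cells and 0.304 in DMSO cells, a ratio of 154 (74.5 to 383). The classic antagonist DKK1 was at 69.3 and 54.8 CPM, 1.26-fold (1.18 to 1.35). FRZB, a decoy receptor for Wnt ligands, was at 29.5 and 382 CPM, 13.0-fold lower (12.2 to 13.7). Another decoy, SFRP5, was at 13.8 and 116 CPM, 8.39-fold lower (7.70 to 9.15), while SFRP1 was at 606 and 657. RSPO3, a secreted amplifier of Wnt signals, was at 7.20 and 63.6 CPM, 8.83-fold lower (7.85 to 9.96).

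Among ligands and receptors few genes of high level differed. Of 9 measured Wnt ligands, 4 were higher and 2 lower, and all 6 were under 20 CPM in both libraries. Of 13 measured receptors, 1 was higher and 3 lower. ROR1, a receptor of non-canonical Wnt ligands, was the higher one, at 49.7 and 4.26 CPM, 11.7-fold (9.53 to 14.4). The co-receptor LRP6 was at 26.0 and 13.2 CPM, a ratio of 1.96 (1.73 to 2.23), and FZD2 at 87.7 and 88.7.

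**Figure D2:**
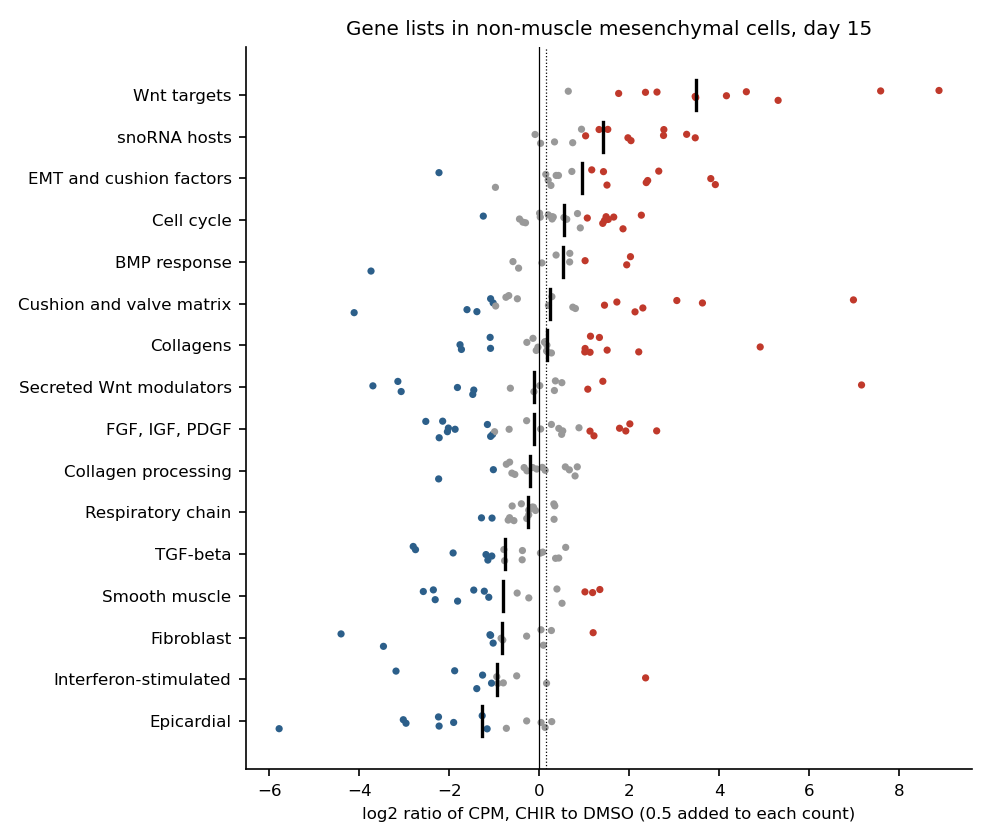
Log2 ratio of CPM, CHIR to DMSO, for each measured member of 16 gene lists in non-muscle mesenchymal cells (points, red at least 2-fold higher, blue at least 2-fold lower, grey between; vertical scatter within a list has no meaning). Black bars are the medians of the lists and the dotted line is the median of all genes, 0.16; the median runs from 3.48 for Wnt targets to -1.27 for epicardial genes.

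Transcription factors of cushion mesenchyme and of epithelial-mesenchymal transition (EMT) were the next group. Of 17 members 16 were measured, with 8 higher and 1 lower and a median log2 ratio of 0.95. TBX2 and TBX3, T-box repressors of the atrioventricular canal, were at 41.6 and 133 CPM with CHIR and at 2.74 and 9.43 with DMSO, 15.2-fold (11.8 to 19.9) and 14.1-fold higher (12.3 to 16.2). The homeobox genes MSX1 and MSX2, targets of BMP signalling in the cushions, were at 336 and 176 CPM against 64.6 and 33.1, 5.20-fold (4.93 to 5.49) and 5.32-fold higher (4.94 to 5.74). PRRX1, a homeobox factor of embryonic mesenchyme, was 6.32-fold higher (5.76 to 6.94). TWIST1, a basic helix-loop-helix factor that drives EMT, was at 148 and 55.1 CPM, 2.69-fold higher (2.54 to 2.86).

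Not all factors of this group differed. SOX9, needed for valve and cartilage matrix, was at 15.7 and 11.7 CPM, and HAND2, a factor of cardiac mesoderm, at 66.5 and 60.0. FOXC1, a forkhead factor of mesenchyme, was at 10.8 and 21.2 CPM, a ratio of 0.510 (0.449 to 0.578) just short of the limit. Its paralogue FOXC2, at 1.26 and 5.91 CPM, was the 1 member called lower and is named after its value was seen.

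MSX1 and TBX3 were each more widely detected with CHIR. MSX1 was found in 71.7% of thinned CHIR cells (70.2 to 73.1) and 18.4% of DMSO cells (16.2 to 20.7), TBX3 in 44.7% and 4.1%, and TBX2 in 18.5% and 2.1%. In muscle cells TBX2 was detected in 35.4% with CHIR and 21.7% with DMSO. A UMI of both MSX1 and POSTN was present in 61.7% of CHIR and 4.55% of DMSO cells.

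Matrix genes of cushions and valves were split. The list has 21 members, of which 20 were measured, 7 higher and 5 lower. The median log2 ratio was 0.24, close to that of all genes. POSTN, periostin, a matrix protein of cushion mesenchyme and maturing valves, was at 739 CPM in CHIR cells and 59.7 in DMSO cells, 12.4-fold higher (11.7 to 13.1). ADAMTS19, a secreted protease expressed in developing valves, was at 124 and 0.956 CPM, a ratio of 130 (85.5 to 207). It was not particular to these cells, since muscle cells held 201 CPM with CHIR and 24.0 with DMSO, a ratio of 8.36. After thinning, ADAMTS19 was detected in 37.3% of CHIR non-muscle and 60.5% of CHIR muscle cells. ADAMTS1, which cleaves versican, was 8.35-fold higher (7.39 to 9.47). On the other side TNC, tenascin-C, was at 3.75 and 65.0 CPM, 17.3-fold lower (14.8 to 20.4). LUM, lumican, a small proteoglycan of collagen fibrils, was at 309 and 938 CPM, 3.04-fold lower (2.98 to 3.10). Its relative DCN, decorin, was at 220 and 465 CPM, 2.11-fold lower (2.06 to 2.17), and kept this call in 7 of 13 alternative settings.

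Further members were looked up after the list was seen. HAS2, the enzyme that makes the hyaluronan of cardiac jelly, was at 112 and 25.5 CPM, and HAPLN1, which links hyaluronan to proteoglycans, at 95.8 and 28.9. VCAN, versican, the main proteoglycan of cushions, was at 162 and 133 CPM, a ratio of 1.22. FN1, fibronectin, was at 186 and 377 CPM, a ratio of 0.492 (0.478 to 0.507) that lay at the limit.

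POSTN was detected in 84.9% of thinned CHIR cells (83.7 to 86.1) and 16.9% of DMSO cells (14.8 to 19.1), against 16.4% of CHIR and 1.38% of DMSO muscle cells. The median thinned CHIR cell held 3 UMIs of POSTN, the median DMSO cell 0. LUM and DCN showed no such gap between shares, since LUM was detected in 57.5% and 64.5% of cells and DCN in 53.2% and 56.9%.

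The median of the collagen genes lay at that of all genes. Of 23 members 22 were measured, 8 were higher and 4 lower, and the median log2 ratio was 0.17 beside 0.16 for all genes. Collagen VI, which forms beaded filaments around cells, was higher in its 3 measured chains. COL6A3 was at 173 CPM in CHIR cells and 37.4 in DMSO cells, 4.64-fold higher (4.32 to 4.98), COL6A2 at 324 and 114, 2.85-fold (2.73 to 2.97), and COL6A1 at 328 and 130, 2.53-fold (2.43 to 2.63). The basement membrane chains COL4A1 and COL4A2 were at 47.2 and 48.1 and at 72.6 and 87.8 CPM. Of 16 collagen processing genes, 0 were higher and 2 lower. SPARC, a collagen-binding matrix protein, was at 398 and 806 CPM, 2.03-fold lower (1.98 to 2.07), a call kept in 6 of 13 alternative settings, and the crosslinking enzyme LOX at 5.42 and 25.5, 4.71-fold lower.

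Genes of cartilage and tendon, structures whose programme valves partly share, were mostly at low level. Of 10 measured of 16, 5 were higher and 1 lower. FMOD, fibromodulin, was at 40.3 and 11.3 CPM, 3.55-fold higher (3.12 to 4.06), and SOX6, a partner of SOX9, at 81.8 and 37.1, 2.20-fold higher (2.04 to 2.37). CDH11, the cadherin of mesenchymal cells, was at 135 and 38.2 CPM, 3.54-fold higher (3.30 to 3.80), and CDH2, N-cadherin, at 45.6 and 129, 2.82-fold lower.

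**Figure D3:**
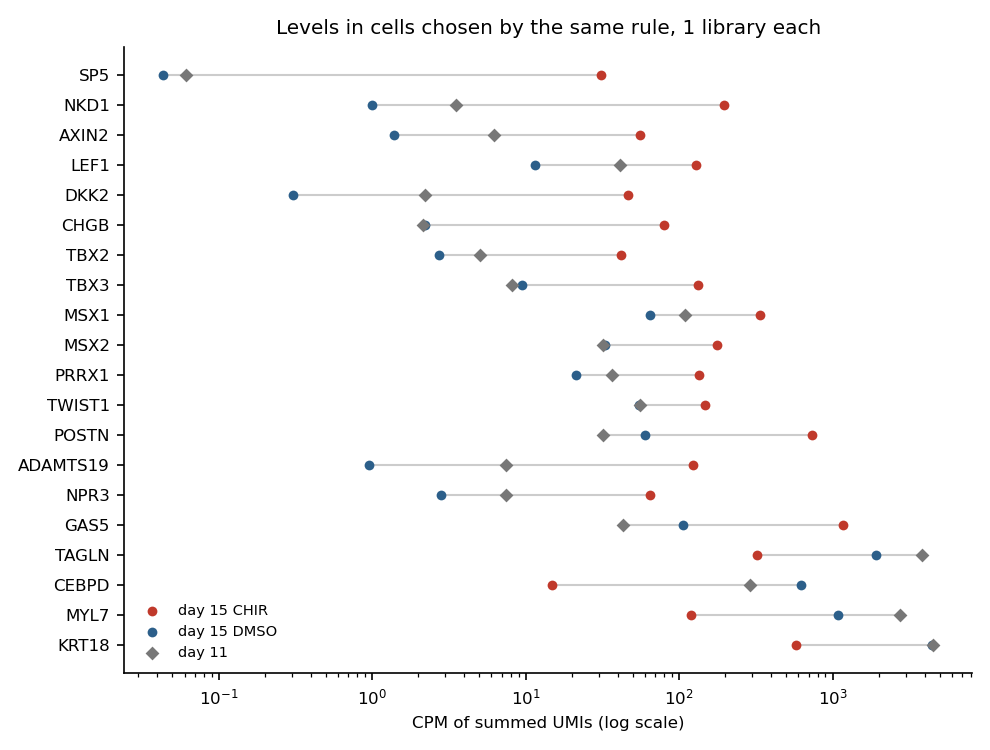
CPM on a log axis of 20 genes in the summed non-muscle mesenchymal cells of day 15 with CHIR (red), day 15 with DMSO (blue) and day 11 (grey diamonds), 1 library each, with a grey line from the lowest to the highest. POSTN stands at 739, 59.7 and 32.0 CPM in that order, NKD1 at 197, 0.999 and 3.50, and TAGLN at 321, 1911 and 3856.

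Epicardial genes were lower or between. None of 13 measured genes was higher and 8 were lower, beside 13.5% of all genes, with a median log2 ratio of -1.27. UPK3B, a surface protein of mesothelium, was at 1.42 CPM in CHIR cells and 78.8 in DMSO cells, 55.3-fold lower (43.4 to 71.6). TCF21, a factor of epicardium and cardiac fibroblasts, was at 65.7 and 158 CPM, 2.41-fold lower (2.29 to 2.52). WT1, a zinc finger factor of epicardium, was at 12.9 and 28.7 CPM, 2.23-fold lower, and kept this call in 10 of 13 alternative settings. KRT18, a simple epithelial keratin, was at 575 and 4471 CPM, 7.78-fold lower (7.68 to 7.89), and has processed pseudogenes with which reads could be shared. PDPN, podoplanin, was at 77.3 and 75.1 CPM, and BNC1 at 21.0 and 17.3.

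UPK3B was detected in 20.0% of thinned DMSO cells (17.7 to 22.3) and 0.583% of CHIR cells (0.361 to 0.890). TCF21 was found in 35.4% and 26.0%, and WT1 in 13.7% and 6.3%. At day 11 the shares of UPK3B, TCF21 and WT1 were 5.0%, 21.9% and 17.1%.

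Smooth muscle and fibroblast genes also had more members lower than higher. In the smooth muscle list 3 of 14 were higher and 7 lower, with a median log2 ratio of -0.80. TAGLN, an actin-binding protein of smooth muscle, was at 321 and 1911 CPM, 5.96-fold lower (5.85 to 6.07), and ACTA2, smooth muscle actin, at 119 and 591, 4.96-fold lower (4.81 to 5.12). CNN1, calponin, was 3.51-fold lower. NOTCH3, a receptor of mural cells, was at 23.1 and 9.03 CPM, 2.55-fold higher (2.20 to 2.97), and RGS5, a pericyte gene, at 205 and 156. The heart muscle gene MYL7 was 9.19-fold lower in the same cells, and its part in these values was not tested.

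The fibroblast list held 1 higher and 5 lower genes of 12, with a median log2 ratio of -0.83. MFAP4, a microfibril protein, was at 24.2 and 267 CPM, 11.0-fold lower (10.3 to 11.7). DDR2, a collagen receptor, was at 71.1 and 30.9 CPM, 2.30-fold higher (2.12 to 2.49), and 1.90-fold at a muscle threshold of 0.05. With mitochondrial and ribosomal genes left out of the totals, and after thinning, 2 fibroblast genes were lower. Over all genes these settings gave 1798 of 16371 and 1719 of 14186 lower. PDGFRA, the growth factor receptor of mesenchymal progenitors, was at 44.7 and 37.1, and the intermediate filament gene VIM at 3804 and 3701.

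**Figure D4:**
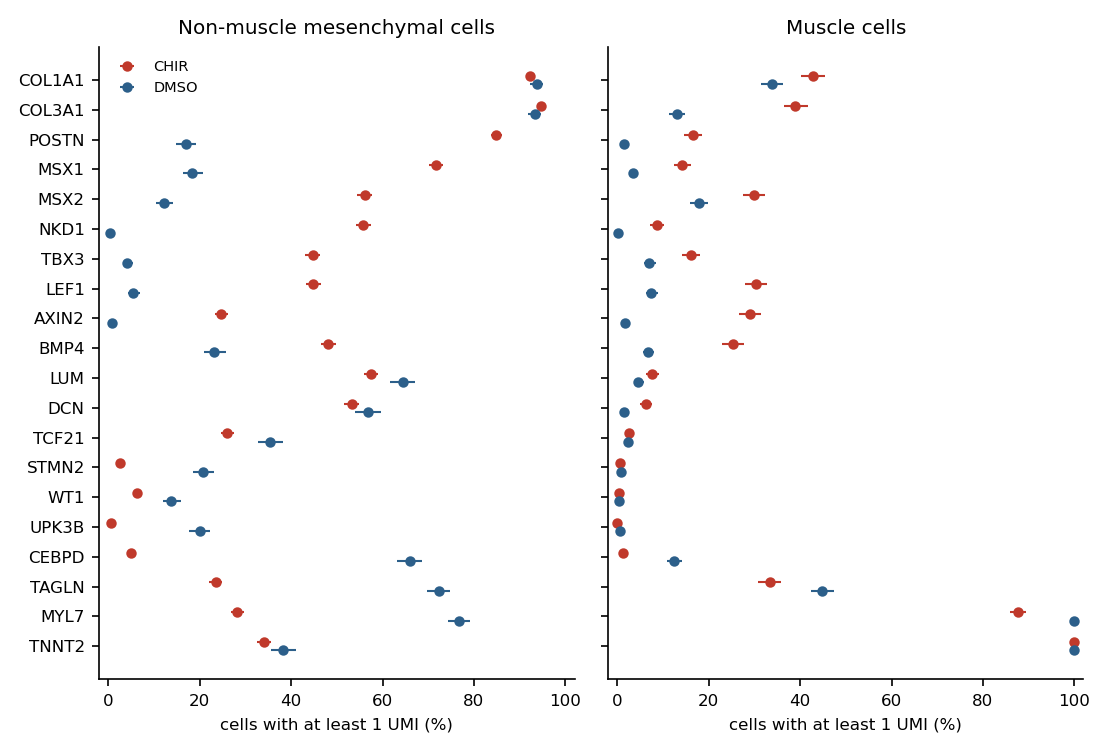
Share of cells with at least 1 UMI of 20 genes after thinning every cell to 5000 UMIs, in non-muscle mesenchymal cells (left) and muscle cells (right) of the CHIR (red) and DMSO (blue) day 15 libraries; bars are exact binomial 95% intervals for counting error. POSTN reaches 84.9% of the CHIR and 16.9% of the DMSO non-muscle cells, CEBPD 4.91% and 65.9%, while COL1A1 and COL3A1 lie above 90% in both.

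The genes with the highest ratios at 100 CPM or more included NKD1, ADAMTS19, POSTN, TBX3 and LEF1, given above. CA8, a protein related to carbonic anhydrases that binds the inositol trisphosphate receptor, was at 131 CPM in CHIR cells and 1.04 in DMSO cells, a ratio of 125 (84.1 to 196). PITX1, the homeobox factor of hindlimb mesenchyme, was at 149 and 9.34 CPM, 15.98-fold higher (13.95 to 18.4). LIX1 was at 253 and 16.1 CPM, 15.7-fold higher (14.2 to 17.5). CHN1, a GTPase-activating protein for Rac, and NAV2, a microtubule-associated navigator, were 10.8-fold and 8.22-fold higher. CA8 was detected in 44.2% of CHIR and 0.248% of DMSO cells after thinning, and PITX1 in 30.6% and 3.48%. NAV2 was found in 35.2% of CHIR non-muscle and 70.7% of CHIR muscle cells, and CHN1 in 44.2% and 12.8%.

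Host genes of small nucleolar RNAs were the other group among these. GAS5, the growth-arrest transcript, was at 1170 and 106 CPM, 11.1-fold higher (10.6 to 11.5), and SNHG32 at 164 and 16.9, 9.71-fold (8.77 to 10.8). Of 14 measured hosts, 9 were higher and 0 lower, with a median log2 ratio of 1.43. SNHG29 and SNHG15 were at 2212 and 2165 and at 69.7 and 74.3 CPM. The ribosomal share of UMIs also differed between the groups, as given above, and its part in these ratios was not tested. In muscle cells GAS5 stood at 1517 and 164 CPM, 9.27-fold higher, and 8 of the 14 hosts were higher, where 9.11% of 15695 genes were.

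At the other end, NPY, neuropeptide Y, was at 0.586 CPM in CHIR cells and 112 in DMSO cells, 191-fold lower (132 to 288). SPP1, osteopontin, was at 2.51 and 148 CPM, 59.0-fold lower (49.2 to 71.4). CEBPD, a transcription factor induced by inflammatory and hormonal signals, was at 14.9 and 620 CPM, 41.6-fold lower (38.5 to 44.9). MGP, an inhibitor of calcification, was 36.2-fold lower, and ASS1, an enzyme of arginine synthesis, 26.0-fold. Genes linked to muscle formed part of this end, with ACTG2, ANKRD1, PDLIM3, NPPB and CSRP2 lower by 41.0-fold, 23.8-fold, 16.4-fold, 14.7-fold and 11.5-fold. In DMSO non-muscle cells ACTG2 was at 141 CPM and ANKRD1 at 153, against 7.72 and 146 in DMSO muscle cells. NPPB was at 140.6% of its level in DMSO muscle cells. After thinning, PDLIM3 was detected in 45.0% of DMSO non-muscle and 11.0% of DMSO muscle cells. For CSRP2 these shares were 96.8% and 92.3%. STMN2, a microtubule-destabilising protein of neurons, was at 8.48 and 132 CPM, 15.6-fold lower (14.1 to 17.4).

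Many of these lower genes were detected in only a minority of the thinned DMSO non-muscle cells. NPY was detected in 16.5% of them, STMN2 in 20.7% and UPK3B in 20.0%. NPPB was detected in 4.88%, ACTG2 in 9.11%, ANKRD1 in 13.3%, SPP1 in 18.2% and MGP in 19.04%. The ratios of these genes therefore describe summed cells of which few had a UMI with DMSO. ASS1, PDLIM3 and FRZB were found in 37.6%, 45.0% and 47.1%, whereas CEBPD was found in 65.9% (63.1 to 68.6) and CSRP2 in 96.8%. STMN2 and TCF21 were detected together in 13.3% of DMSO and 1.03% of CHIR cells. Neuronal and secretory genes had calls on both sides: 5 of 13 measured were higher and 5 lower. Their median log2 ratio was 0.62, beside 0.16 for all genes, and changed sign at a muscle threshold of 0.2. CHGB, a protein of secretory granules, was at 80.3 and 2.22 CPM, 36.2-fold higher (27.5 to 48.8).

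TGF-beta genes were lower or between, and BMP genes were mixed. Of 10 BMP response genes 3 were higher and 1 lower, and their median log2 ratio was 0.53 but -0.09 in cells without LUM and DCN. ID2, an inhibitor of helix-loop-helix factors, was at 412 and 101 CPM, 4.08-fold higher (3.91 to 4.26), while its relative ID3 was at 631 and 945, a ratio of 0.668. The ligand BMP4 was at 168 and 80.7 CPM, 2.09-fold higher (1.98 to 2.20), and BMP2, the ligand of atrioventricular canal muscle, at 5.53 and 19.6, 3.55-fold lower (3.05 to 4.15). BMP4 was short of 2-fold with median-of-ratios scaling. Of 15 TGF-beta genes 0 were higher and 6 lower, and their median log2 ratio was -0.77. The ligand TGFB1 was at 44.6 and 101 CPM, 2.27-fold lower (2.14 to 2.41), and 1.92-fold lower in cells with LUM or DCN and 3.53-fold in the rest. CCN2, a matricellular target, was at 73.6 and 277 CPM, 3.77-fold lower (3.61 to 3.93).

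Growth factor genes were mixed, with 6 of 24 higher and 9 lower. The receptors FGFR1 and FGFR2 were at 69.9 and 32.9 CPM against 20.2 and 8.12, 3.45-fold and 4.05-fold higher. IGFBP2 and IGFBP5, which bind insulin-like growth factors, were at 211 and 868 and at 251 and 529 CPM. Among guidance and adhesion genes, 9 of 21 were higher and 6 lower. The repellent SEMA3A and its co-receptor NRP1 were 5.55-fold (4.90 to 6.31) and 4.42-fold higher (3.87 to 5.08). The chemokine CXCL12 was at 11.8 and 73.2 CPM, 6.21-fold lower (5.64 to 6.85).

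Factors of early heart fields gave 3 of 15 higher and 3 lower. OSR1, a factor of lateral mesoderm, was at 20.5 and 2.35 CPM, 8.72-fold higher (6.63 to 11.7). TBX5, a factor of atria and posterior heart field, was at 53.3 and 8.56 CPM, 6.23-fold higher (5.38 to 7.23), and the nuclear receptor NR2F2 at 147 and 34.1, 4.32-fold higher (4.01 to 4.65). HAND1 was at 386 and 310 CPM and GATA4 at 34.3 and 40.7. Of 21 measured HOX genes 4 were higher and 2 lower, which is near the background. PEG10, an imprinted gene derived from a retrotransposon, was at 570 and 105 CPM, 5.44-fold higher (5.21 to 5.67).

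Cell cycle genes were higher in part. Of 23 genes 8 were higher and 1 lower, and their median log2 ratio was 0.55. In cells without LUM and DCN 15 were higher with a median of 1.10, and in cells without MKI67 and TOP2A 6 of 21 with a median of 0.29. Over all genes, 2358 of 13576 were higher in the former cells and 2943 of 15646 in the latter, with medians of 0.10 and 0.14. The proliferation marker MKI67 was at 63.4 and 13.1 CPM, 4.83-fold higher (4.29 to 5.46), and the replication licensing gene MCM3 at 41.8 and 11.5, 3.64-fold higher (3.20 to 4.16). UBE2C, a mitotic ubiquitin carrier, was at 135 and 111, and CDK1, the mitotic kinase, at 52.9 and 71.7, a ratio of 0.738. MKI67 was detected in 13.5% of thinned CHIR and 4.9% of DMSO cells. Interferon-stimulated genes had 1 of 11 higher and 5 lower, with IFITM3, a membrane restriction factor, at 1162 and 2018 CPM. For genes of the respiratory chain the count was 0 of 16 higher and 2 lower.

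Notch and retinoic acid genes had members on both sides. Notch genes had 1 of 10 higher and 3 lower. The target HES4 was at 15.2 and 101 CPM, 6.64-fold lower, and HEY1, another Notch target, at 130 and 73.1. Retinoic acid genes had 2 of 10 higher and 2 lower, with STRA6, the cellular importer of retinol, at 39.7 and 12.9 CPM, 3.06-fold higher (2.71 to 3.47), and 1.92-fold higher in cells without LUM and DCN. Among immediate early and dissociation genes 5 of 12 were higher and 1 lower. JUN was at 540 and 180 CPM, 3.001-fold higher (2.90 to 3.10). JUNB was at 42.4 and 87.5 CPM, 2.06-fold lower, a call kept in 9 of 13 alternative settings.

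Stress and metabolic lists held genes on both sides too. Of 11 genes of the integrated stress response, 1 was higher and 4 lower. With mitochondrial and ribosomal genes left out of the totals, or a muscle threshold of 0.2, 3 were higher and 2 lower. Over all genes these settings gave 4203 higher and 1798 lower of 16371, and 3174 and 2423 of 16750. The central factor of this stress response, ATF4, was at 228 and 86.2 CPM, 2.65-fold higher (2.52 to 2.78). Its target TRIB3 was at 11.3 and 47.3, 4.17-fold lower (3.76 to 4.63). Among 12 targets of p53 there were 2 higher and 2 lower. MDM2, the ubiquitin ligase of p53, was at 30.3 and 14.3 CPM, 2.12-fold higher (1.88 to 2.40), a call kept in 9 of 13 alternative settings. PHLDA3, an inhibitor of the kinase AKT, was at 31.3 and 96.7 CPM, 3.09-fold lower (2.89 to 3.30). Of 20 glycolysis and hypoxia genes 3 were higher and 1 lower. PKM, a pyruvate kinase, was at 408 and 177 CPM, 2.31-fold higher (2.23 to 2.39), and GAPDH at 5247 and 8191, a ratio of 0.641. Of 13 G1 cyclins and CDK inhibitors 1 was higher and 2 lower. CCND2, a G1 cyclin, was at 564 and 201 CPM, 2.80-fold higher (2.72 to 2.89), and CCND3 at 16.2 and 42.0, 2.59-fold lower, and 1.76-fold lower in cells without LUM and DCN.

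Cells within each group were not alike. LUM or DCN was detected in 2702 of 3602 thinned CHIR cells and 851 of 1208 DMSO cells, 74.9% and 70.4% of all the cells, and neither in 900 and 357. This split was chosen after the data were seen. In both subsets NKD1, AXIN2, POSTN, MSX1 and TBX3 were higher with CHIR. POSTN was 11.2-fold higher in cells with LUM or DCN, at 813 and 72.8 CPM, and 28.0-fold in cells with neither, at 488 and 17.4. For MSX1 the ratios were 4.17 and 23.6, the DMSO level being 80.1 CPM with LUM or DCN and 14.5 without.

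Other differences were unequal between the subsets. TCF21 was at 61.5 and 68.7 CPM in cells with LUM or DCN, a ratio of 0.894, but at 80.0 and 447 CPM in the rest. STMN2 was at 6.80 and 69.8 CPM in cells with LUM or DCN and at 14.1 and 335 in those without, 10.3-fold and 23.7-fold lower. FRZB stood at 34.2 and 493 CPM in cells with LUM or DCN and at 13.7 and 24.2 in the rest. BMP2 was at 5.28 and 8.59 CPM with LUM or DCN and at 6.37 and 55.3 without, while BMP4 had ratios of 1.67 and 6.06. COL6A1 was 3.70-fold higher in the first subset and 1.41-fold in the second, COL6A2 3.72-fold and 1.72-fold, and OSR1 12.02-fold and 1.98-fold.

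**Figure D5:**
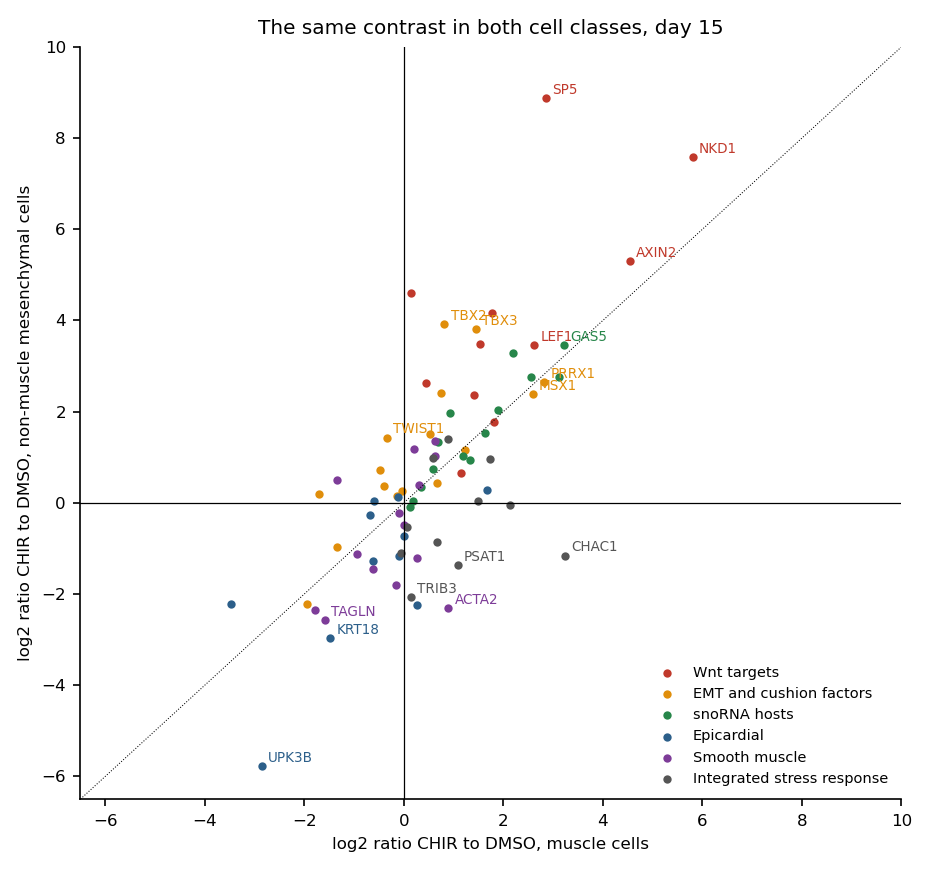
Log2 ratio of CPM, CHIR to DMSO, in muscle cells (horizontal) and in non-muscle mesenchymal cells (vertical) for measured genes of 6 lists with at least 20 UMIs in muscle cells; both axes come from the same 2 libraries and the dotted line marks equal ratios. AXIN2, LEF1 and GAS5 lie high on both axes, while CHAC1, with ratios of 9.49 in muscle cells and 0.448 in non-muscle cells, lies to the right of zero and below it.

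The same contrast in the muscle cells of the 2 libraries is given beside these values. They were 1383 CHIR and 1659 DMSO cells, with 9.11% of genes higher and 14.3% lower. Since the libraries are the same, the comparisons are not independent, and no difference between them was tested. In muscle cells AXIN2 was at 69.6 and 2.98 CPM, a ratio of 23.4 beside 40.3 in the non-muscle cells, and LEF1 had 6.13 beside 11.1. TBX2 and TBX3 had ratios of 1.76 and 2.72 in muscle cells beside 15.2 and 14.1. MSX1 had 6.04 beside 5.20, and POSTN, at 68.7 and 3.77 CPM in muscle cells, 18.2 beside 12.4. TWIST1 had 0.790 beside 2.69, ACTA2 1.86 beside 0.202, and PEG10 0.757 beside 5.44.

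Gene length went with the ratios. Across 14193 genes with a known span (86.7% of those measured) Spearman's rho between span and log2 ratio was 0.20, as a description over genes that are not independent. With genes in 5 equal groups by span, the median log2 ratio was -0.25 in the group of the shortest and 0.45 in that of the longest. After the median of its own group was taken from each gene, the list medians were 3.28 for Wnt targets, 1.02 for EMT and cushion factors, 1.54 for small nucleolar RNA hosts, -0.15 for cushion and valve matrix, -0.02 for collagens and -1.50 for epicardial genes. This step also takes out the shift of all genes, whose median log2 ratio was 0.16. The sign turned for cushion and valve matrix and for collagens, of which the collagens had lain at that median before. It also turned for the Notch, guidance and adhesion, early heart field, immediate early and further endothelial genes. The part of length and the part of the common shift in these turns were not separated.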

How the data were processed

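The 3 single-cell libraries of H1-derived cardiac cells were 1 each for day 15 with CHIR, day 15 with DMSO and day 11. Per the submitters' processing notes, Cell Ranger 6.1.1 and the build GRCh38 were used, and R 4.1.0 and Seurat 4.3.0 are named for day 11. The authors deposited raw UMI counts for each gene in each cell, without normalization. For introns, whether reads counted was not given in the sources used here. Deposited cells held between 1805 and 5961 genes (CHIR) and 1824 and 5988 (DMSO) in the cells analysed. The day 15 libraries held 81076689 and 65675862 UMIs, of which the chosen cells held 47765068 and 23022090. H3K27ac peaks and input chromatin, both from CHIR cultures, were not used here.

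UMIs were summed over the chosen cells of a library and divided by their total (CPM), with Python 3.11.15, numpy 2.4.6, scipy 1.17.1 and pandas 2.3.3. Ratios have exact conditional binomial 95% intervals, tested on simulated counts, and 0.5 was added to both counts before a log2 ratio. Genes needed 20 UMIs over both libraries. Shares of cells were taken after thinning to 5000 UMIs (seed 1). Doublets were not removed, since Scrublet (scanpy 1.11.5) called 0 CHIR and 220 DMSO cells. TMM factors came from edgeR 4.0.16 and are used for scaling only, with no edgeR test. Promoter windows come from RefSeq (GRCh38.p14).

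The 232 named genes are 26 fixed ones, the 12 highest and 12 lowest ratios of at least 100 CPM by the interval bound nearest to 1, up to 3 highest and 3 lowest members of at least 20 CPM of each of 41 lists, and the members with the highest level in each list. The 12 highest and 12 lowest were ranked without ribosomal protein genes, mitochondrial genes and the genes used to choose the cells. Genes listed in 1 table with at least 20 CPM would also be named, and there were 0. Other members are said to be named after their values were seen. The cells, lists and genes were chosen with earlier results of these data known. Alternatives, 13 planned and others added, concerned scaling, the UMI minimum, the choice of cells, thinning and doublet scores.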

Additional observations from a re-analysis of the deposited data

Results flagged for a closer look

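Of 14965 genes measured in both kinds of cell of the same 2 libraries, 875 were higher in both and 1027 lower in both. These were 30.8% of the genes higher and 57.7% of those lower in the non-muscle cells. In opposite directions, 66 were higher in the non-muscle mesenchymal and lower in the muscle cells, and 28 the other way. Among the 232 named genes 6 had opposite calls, and in no case was the difference between the 2 kinds of cell tested. CHAC1, an enzyme that degrades glutathione in the integrated stress response, had a CHIR to DMSO ratio of 0.448 in non-muscle cells and 9.49 in muscle cells. PSAT1, an enzyme of serine synthesis on the same stress list, had 0.389 and 2.12. DCN, decorin, had 0.473 and 3.41, where its level in muscle cells was 18.7 and 5.49 CPM. HOXC6, a homeobox gene of trunk identity, had 0.487 and 6.72. SMAD9, a transducer of BMP signals, had 2.03 and 0.419. PLVAP, an endothelial gene of the cell choice itself, had 0.397 and 2.90 and only few UMIs. In the non-muscle cells the calls of CHAC1, DCN, HOXC6 and SMAD9 were lost under at least 3 alternative settings, and those of PSAT1 and PLVAP when only 1 of the LUM or DCN subsets was used.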

How the results depend on the processing

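Of 232 named genes, 52 of the 66 called higher and 46 of the 67 called lower kept their call under every alternative, and 69 of the 99 in between stayed there. NKD1, AXIN2, LEF1, POSTN, MSX1, MSX2, TBX2, TBX3, GAS5, UPK3B, CEBPD and TAGLN were among those that kept it. Across the alternatives the Wnt targets had 10 or 11 genes higher and 0 lower. With no minimum of UMIs 4961 of 21255 genes were higher and 3729 lower, and with at least 200 UMIs 1997 and 1073 of 11512. Of 16371 genes, 3053 were higher and 2336 lower with TMM factors, and 2780 and 2538 with median of ratios. The mean of per-cell CPM gave 3132 and 2277. Muscle thresholds of 0.05 and 0.2 gave 3008 and 1999 of 15651, and 3174 and 2423 of 16750. After thinning they were 2703 and 1719 of 14186, and without MKI67 and TOP2A cells 2943 and 2160 of 15646. Cells with LUM or DCN had 3386 and 1979 of 15722, and the rest 2358 and 1872 of 13576. The EMT and cushion factors called lower were 2 with TMM factors, with median of ratios, with the mean of per-cell CPM, at muscle thresholds of 0.05 and 0.2, without MKI67 and TOP2A cells, after thinning and in cells without LUM and DCN, and 0 with at least 200 UMIs. The cushion and valve matrix genes called lower were 3 with mitochondrial and ribosomal genes left out of the totals and in cells with LUM or DCN. Collagens had 2 lower in the former setting and with at least 200 UMIs, and 5 higher in cells without LUM and DCN. Smooth muscle genes had 1 higher after thinning, TGF-beta genes 1 higher in cells with LUM or DCN and 2 in those without, where 1 epicardial gene was higher. Counts of other lists, most of them of 5 or fewer genes, also moved by over 1.5 times under some settings. In cells without LUM and DCN the ratio turned for ACKR3 (2.15), HOXC6 (4.56) and, by the choice of these cells, DCN (3.30) and LUM (2.80). The chosen cells were 51.3% of the CHIR and 15.1% of the DMSO library at a muscle threshold of 0.05, 66.9% and 41.3% at 0.2, 57.9% and 20.9% with no epithelial or endothelial gene allowed, and 67.3% and 31.7% without the 6% highest doublet scores. The subsets by LUM and DCN and the length adjustment were added after seeing the data. No paired analysis was possible because each single-cell group has 1 library. With 1 library per group, a difference of treatment and a difference of culture or capture cannot be told apart.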
